A study of Homo sapiens with 2 samples.

Results

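The genes described here build the contacts and the inner scaffold of an epithelial sheet: adherens junctions, tight junctions, desmosomes, keratin filaments, a surface protease with its inhibitors, and regulators that keep cells epithelial. They were chosen by name, as probe sets whose only symbol in the platform annotation is 1 of 41 listed genes. The 41 names were set with earlier results of these data known. Of the 41 genes, 37 had such a probe set, 40 probe sets in all, of 18417 genes on the array. CTNND1 and OCLN lie on probe sets that carry a further symbol and got no value, and F11R and ESRP1 are named only. A gene counted as measured when the higher of its values reached 5.55, the median over all probe sets and both arrays, and 34 of the 37 genes did, as did 11548 of all 18417. Being a median, it sets no limit of detection. Nearest to it inside was cingulin (CGN), at 5.59 on the TFAP2E array and 5.70 on the control array, and nearest outside was the transcription factor OVOL1, at 5.15 and 5.09 in that order.

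The cells were SW480, an established human colorectal adenocarcinoma line. The TFAP2E cells carried the TFAP2E coding sequence, stably transfected in the pTarget mammalian expression vector, and the control cells with the empty vector. Both were kept in Geneticin for several weeks, and single clones were picked and examined for TFAP2E expression. The labels do not say whether an array holds 1 clone or several, so that a difference between clones and an effect of TFAP2E cannot be told apart. Total RNA was hybridised to Affymetrix arrays, 1 array for each group, and the values are log2 RMA values, which the authors had set to a common scale across arrays.

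Adherens junctions join neighbouring cells through cadherins, whose tails bind catenins and through them actin. Tight junctions seal the space between cells with claudins and other membrane proteins held by cytoplasmic scaffolds, and desmosomes tie the keratin filaments of adjacent cells together through desmosomal cadherins, plakophilins and plakins. In the colon these structures hold the single-layered lining together, and loss of E-cadherin is a textbook mark of carcinoma cells that leave their neighbours.

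Each group has 1 array, hence no gene has an error or a p-value, and the number of arrays limits the precision. Differences are TFAP2E array minus empty vector array, which is called the control array below, on the log2 scale. Over the 11548 measured genes their median was 0.04, their standard deviation 0.219, and 95% of them lay between -0.37 and 0.47. The TFAP2E probe set itself read 6.81 on the TFAP2E array and 6.77 on the control array. That difference of 0.04 does not show the introduced gene. Where on the transcript the probe set lies is not stated in the labels or tables, and all directions rest on the labels. Of 8 markers of colon epithelium 6 had a probe set, and 4 of them were measured, the homeobox factors CDX1 and CDX2, the lectin LGALS4 and villin (VIL1), which passed only on the TFAP2E array, at 6.22 against 4.94. CDH17 (3.27 and 3.44) and GPA33 (4.41 and 4.84), TFAP2E array first, were below the filter. All 6 endothelial markers, 6 of 8 fibroblast markers and 4 of the 6 leukocyte markers with a probe set were below it as well, while the other 2, the macrophage-associated CD68 and CD14, differed in opposite directions. CD68 read 6.60 on the TFAP2E array and 6.02 on the control array (0.57), and CD14 read 5.46 and 5.66 in that order (-0.19). The part of these markers in the results was not tested.

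As a group, the 34 measured genes of this list were slightly lower in the TFAP2E-labelled cells. The names were set with earlier results of these data known, so this describes the list and not epithelial genes at large. Further lists of the same systems, described below, had medians from -0.06 to 0.23. Of the 34 measured genes 25 had a difference below 0 and 9 above it (23 below after centring of the arrays and 26 after removal of the loess trend), where 39.5% of all genes lay below 0. Below the median of all genes lay 27 of the 34, against 50.0% of all genes by construction. The median difference of the 34 was -0.13, against 0.04 over all genes, and their range was from -0.71 to 0.34. None reached 2-fold, a size reached by 0.199% of all genes. E-cadherin alone reached 1.5-fold, 1 of 34, where 1.5% of all genes reached 1.5-fold in either direction and 0.606% in the lower direction. Among the lowest 5% of all genes, those with a difference of -0.28 or less, were 6 of the 34, and none was among the highest 5%, at 0.38 or more. Since the arrays measure RNA from whole cultures, fewer cells that express a gene and less RNA in each cell cannot be told apart.

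**Figure D1:**
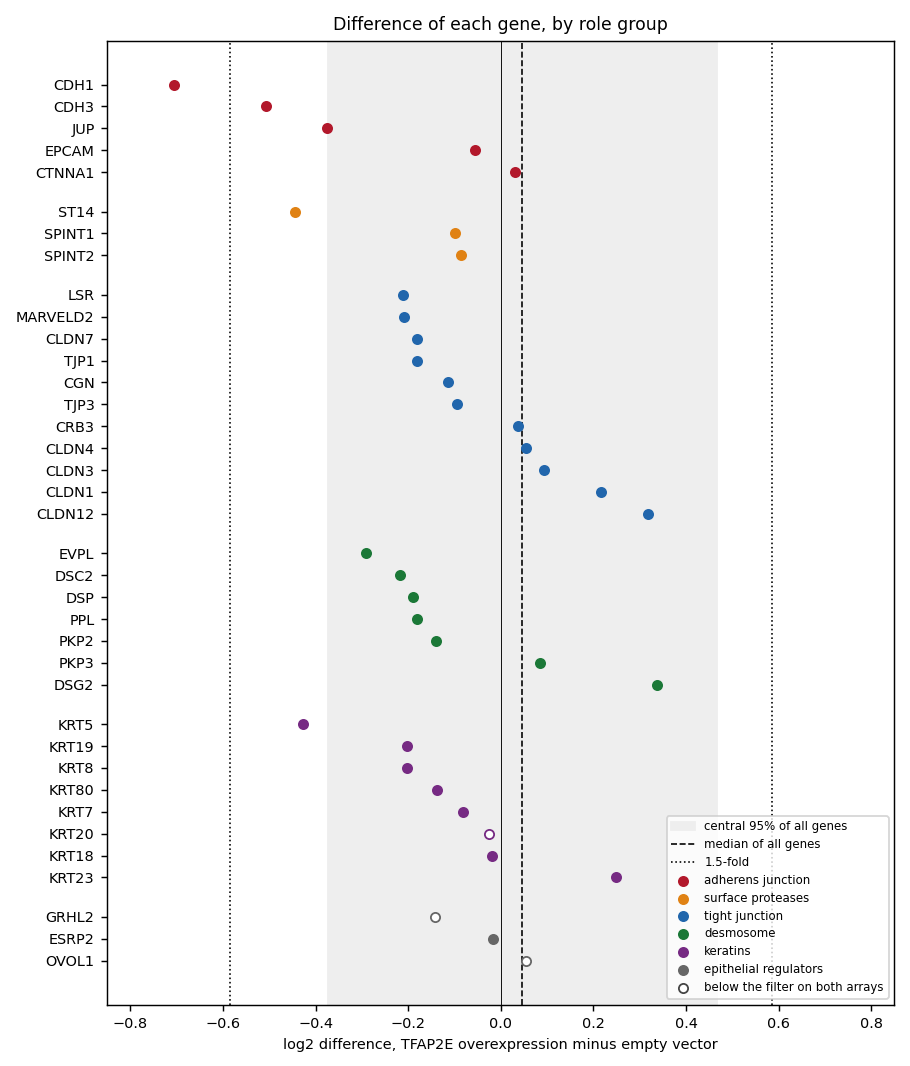
Log2 difference of each of the 37 genes with a probe set, TFAP2E overexpression minus empty vector, 1 array each, ordered within role groups; open circles mark the 3 genes below the filter on both arrays. The grey band holds the central 95% of all genes, the dashed line is their median and the dotted lines mark 1.5-fold. CDH1 lies beyond the 1.5-fold line, and CDH3, ST14, KRT5 and JUP lie below the grey band.

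The medians of the role groups lay between -0.37 and -0.02. The adherens junction genes had the lowest median, at -0.37 over 5 measured genes, followed by the desmosome genes at -0.18 over 7 and the keratins at -0.14 over 7. The surface protease and its inhibitors had a median of -0.10 over 3 genes, and the tight junction genes -0.09 over 11, with the widest split of signs, 6 below 0 and 5 above. Of the regulators only ESRP2 was measured, at -0.02. This order turned when only genes above the 75th percentile were kept, which left out CDH1 and CDH3. The adherens junction median was then -0.0555, above those of the keratins (-0.17), the desmosome (-0.16), the proteases (-0.10) and the tight junction (-0.0636). No difference between these groups was tested.

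The promoters of the lowest and of the highest genes with an entry in the RefSeq promoter table (GRCh38.p14) are shown because the transfected protein is a DNA-binding factor. They were picked after the values were seen. The table held 21 of the 41 genes, 19 of them measured, and where it listed several starts the first was used. Each line gives the 250 bases before the transcription start, 5′ to 3′ on the gene's strand. Capitals mark matches to 3 motifs searched on both strands, the AP-2 motif GCCNNNGGC, its longer form GCCNNNNGGC, and CAGGTG or its complement CACCTG, an E-box bound by SNAI and ZEB repressors. KRT5 lies at chr12:52520395-52520644 (minus strand), JUP at chr17:41786712-41786961 (minus strand), CLDN12 at chr7:90403211-90403460 (plus strand) and DSG2 at chr18:31497927-31498176 (plus strand).
KRT5: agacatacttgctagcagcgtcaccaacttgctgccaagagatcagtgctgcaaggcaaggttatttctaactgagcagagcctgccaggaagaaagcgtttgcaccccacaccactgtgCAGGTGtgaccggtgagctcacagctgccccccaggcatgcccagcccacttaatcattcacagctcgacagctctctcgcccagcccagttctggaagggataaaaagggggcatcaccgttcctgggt
JUP: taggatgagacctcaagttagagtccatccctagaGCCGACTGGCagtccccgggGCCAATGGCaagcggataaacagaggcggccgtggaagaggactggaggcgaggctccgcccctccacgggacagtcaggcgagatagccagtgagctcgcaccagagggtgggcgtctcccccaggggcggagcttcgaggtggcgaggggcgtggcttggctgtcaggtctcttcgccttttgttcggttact
CLDN12: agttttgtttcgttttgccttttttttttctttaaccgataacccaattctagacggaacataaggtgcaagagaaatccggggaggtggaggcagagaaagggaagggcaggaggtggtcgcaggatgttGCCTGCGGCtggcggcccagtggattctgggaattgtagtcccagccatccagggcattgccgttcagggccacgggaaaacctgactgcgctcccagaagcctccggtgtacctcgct
DSG2: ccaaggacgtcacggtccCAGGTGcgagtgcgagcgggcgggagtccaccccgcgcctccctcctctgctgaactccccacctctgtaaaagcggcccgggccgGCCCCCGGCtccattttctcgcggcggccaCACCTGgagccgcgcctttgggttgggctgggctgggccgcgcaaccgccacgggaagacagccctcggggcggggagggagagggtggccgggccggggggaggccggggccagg

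The lowest of these genes, KRT5, held no AP-2 motif of either form and 1 E-box, 130 to 125 bases before the start. JUP held 1 match of each AP-2 form and no E-box. In the highest pair, CLDN12 held 1 GCCNNNGGC, 119 to 111 bases before the start, and DSG2 held 1 GCCNNNGGC and 2 E-boxes. AP-2 matches thus stood in JUP of the lower pair and in both genes of the higher pair. The genes with the lowest differences of the list, CDH1, CDH3 and ST14, had no entry in the promoter table and were not searched. Of the 21 promoters 6 (28.6%) held GCCNNNGGC, against 19.7% of the 27305 genes in the table and 29.2% of its 9283 measured genes. The longer form was in 4 of 21 (19.0%), against 18.4% of all and 27.7% of measured genes. The E-box was in 7 of 21 (33.3%), against 17.5% of all and 16.2% of measured genes, and CRB3 alone held 5 of them. A match says nothing of whether a factor binds there.

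E-cadherin (CDH1), the main epithelial cadherin, read 6.38 on the TFAP2E array and 7.08 on the control array. This 1.63-fold lower value (-0.71) stood near the bottom of the array, as 0.355% of all measured genes had a lower difference. P-cadherin (CDH3), the next gene on chromosome 16 among those measured, read 6.85 on the TFAP2E array against 7.36 on the control array and was 1.42-fold lower (-0.51). Both cadherins stood lower on the TFAP2E array, each well above the filter there. Plakoglobin (JUP), a catenin of adherens junctions and desmosomes, read 8.38 on the TFAP2E array and 8.75 on the control array (-0.37). Alpha-catenin (CTNNA1), which links the cadherin complex to actin, differed little, at 10.88 and 10.84 in the same order (0.03). Within the adherens junction the cadherins and plakoglobin were therefore at the low edge of all genes, with 3 of 5 among the lowest 5%, while alpha-catenin lay near the median.

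EPCAM, a homophilic adhesion molecule of epithelia, had 2 probe sets. The brighter one, used here, read 11.14 on the TFAP2E array and 11.20 on the control array (-0.06), and the other read 10.52 and 10.63 (-0.11). By its number the brighter probe set stands among probe sets of genes on chromosome 4, all 10 nearest, although EPCAM lies on chromosome 2, and whether it reads a near-identical copy was not tested. Both gave a small difference below 0.

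Matriptase (ST14), a membrane-bound serine protease of epithelial cells, read 8.91 on the TFAP2E array and 9.35 on the control array, 1.36-fold lower (-0.44). Its Kunitz-type inhibitors differed less. SPINT1 read 8.05 on the TFAP2E array and 8.15 on the control array (-0.10), and SPINT2 read 9.39 and 9.48 in that order (-0.09). All 3 genes of the group lay below the median of all genes, with the protease among the lowest 5% and the inhibitors not.

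**Figure D2:**
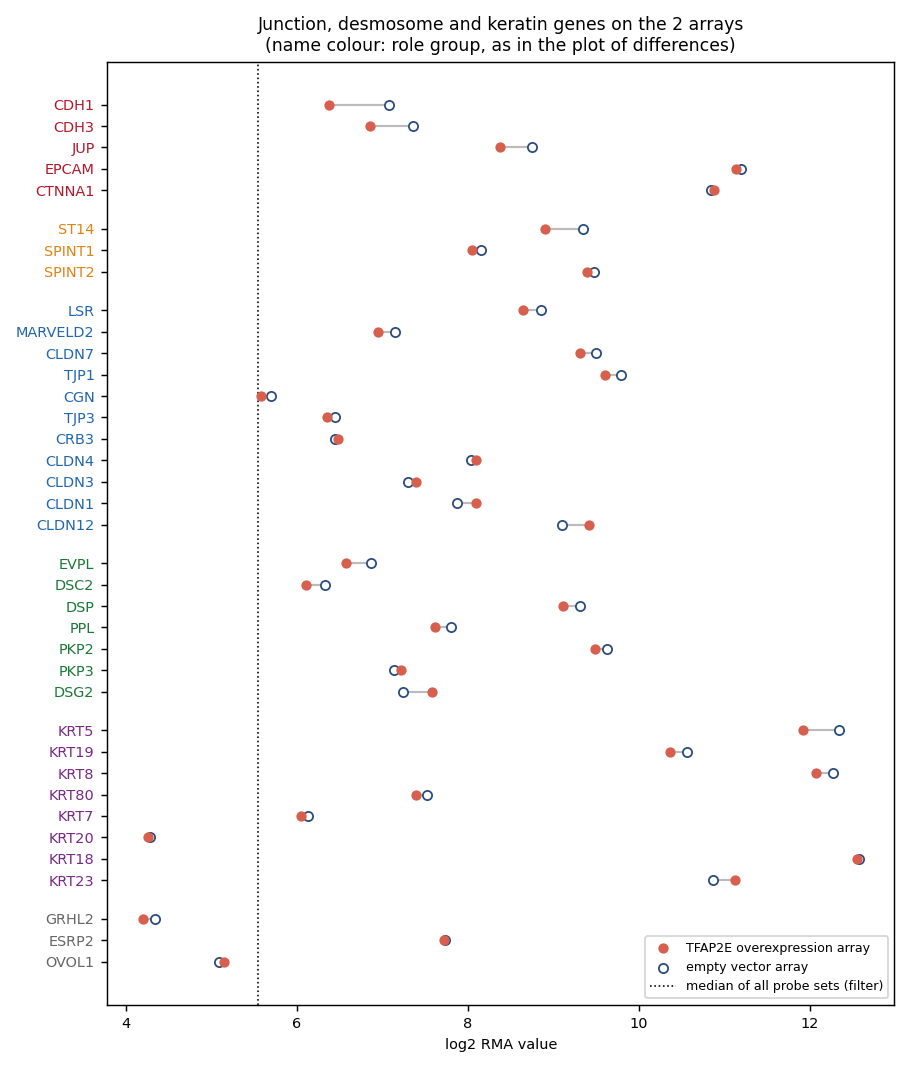
Log2 RMA values of the 37 genes on the TFAP2E overexpression array (filled circles) and on the control array (open circles), with the filter value as a dotted line; levels of different genes are not comparable on this scale. CDH1 and CDH3 show the widest gaps, and KRT20, GRHL2 and OVOL1 lie left of the dotted line on both arrays.

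The tight junction genes fell into a lower and a higher set. LSR, the angulin that marks contacts of 3 cells, read 8.65 on the TFAP2E array and 8.86 on the control array (-0.21). Tricellulin (MARVELD2), another protein of such contacts, read 6.95 on the TFAP2E array and 7.16 on the control array (-0.21). Its second probe set gave identical values on both arrays and is not taken as a separate measurement. The scaffold TJP1 read 9.61 on the TFAP2E array and 9.79 on the control array (-0.18), and its relative TJP3 read 6.35 and 6.45 in that order (-0.09). CGN, which joins the scaffold to the cytoskeleton, differed by -0.11. The scaffold and tricellular genes of the list were thus all below 0, within the central 95% of genes. Outside the list, ILDR1 (0.25) and the polarity protein PARD3 (0.28) were above 0. The polarity scaffold PATJ (-0.31) and MARVELD3 (-0.64) were below it, MARVELD3 outside the central 95%.

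The claudins, the strand-forming proteins, were mixed in sign. CLDN7 read 9.32 on the TFAP2E array and 9.50 on the control array (-0.18). CLDN12 read 9.42 on the TFAP2E array against 9.10 on the control array (0.32), and CLDN1 read 8.10 against 7.88 (0.22). CLDN3 (0.09) and CLDN4 (0.05), both on chromosome 7, were close to the median of all genes, as was the polarity protein CRB3 (0.04). Hence 4 of 5 claudins of the list were above 0, as were 6831 of all 11548 measured genes, and CLDN12 had 91.6% of all genes below it. Measured claudins outside the list were split. CLDN5 (-0.13), CLDN11 (-0.24) and CLDN19 (-0.255) were below 0, and CLDN9 (0.07), CLDN15 (0.14) and CLDN23 (0.15) above it.

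Among desmosome genes the 2 cadherins differed in opposite directions. Desmoglein 2 (DSG2) read 7.58 on the TFAP2E array and 7.24 on the control array, 1.26-fold higher (0.34), the highest of the 34 genes. Desmocollin 2 (DSC2), which pairs with it and lies nearby on chromosome 18, read 6.11 on the TFAP2E array and 6.33 on the control array (-0.22). Desmoplakin (DSP), the plakin that anchors keratins, read 9.12 on the TFAP2E array and 9.31 on the control array (-0.19). Envoplakin (EVPL) was the lowest desmosome gene, at 6.58 on the TFAP2E array against 6.87 on the control array (-0.29), and its partner periplakin (PPL) differed by -0.18. The plakophilins, which stabilise the plaque, were split, with PKP2 at -0.14 and PKP3 at 0.09. All 3 plakins were thus lower on the TFAP2E array.

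Of the 7 measured keratins of the list 6 were below 0, or 5 after centring of the arrays, where KRT18 stood at 0.01. Of all genes 39.5% lay below 0, and of the 10 other measured genes of the keratin list described below 4 did (40.0%). KRT5, the type II keratin of basal cells of layered epithelia, read 11.92 on the TFAP2E array and 12.34 on the control array, 1.34-fold lower (-0.43). KRT8, the main type II keratin of simple epithelia, read 12.07 on the TFAP2E array and 12.28 on the control array (-0.20). Its type I partner KRT18 read 12.55 and 12.57 in that order (-0.02) from the brighter of its 2 probe sets, and 11.46 and 11.61 (-0.16) from the other. The brighter one stands, by number, among probe sets of genes on chromosome 9, while KRT18 lies on chromosome 12. KRT18 has near-identical copies in the genome, and whether this probe set reads one was not tested.

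KRT19, a type I keratin of simple epithelia, read 10.37 on the TFAP2E array and 10.57 on the control array (-0.20). KRT23, another type I keratin, ran the other way, at 11.12 on the TFAP2E array against 10.87 on the control array (0.25). KRT80 (-0.14) and KRT7 (-0.08) differed little. KRT20, the keratin of mature intestinal cells, was below the filter on both arrays, at 4.26 on the TFAP2E array and 4.29 on the control array. KRT23 was the only measured keratin of the list above 0.

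ESRP2, a splicing factor of epithelial transcripts, read 7.72 on the TFAP2E array and 7.74 on the control array (-0.02). GRHL2, a transcription factor that activates junction genes, was below the filter at 4.20 on the TFAP2E array and 4.35 on the control array, and OVOL1 was below it too.

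Neighbouring genes were compared to see whether a difference was shared along the chromosome. For each measured gene the median difference of up to 10 measured genes on either side, epithelial genes of the list left out, was taken in the RefSeq order. These medians lay between -0.07 and 0.19, with a median of 0.05. After their subtraction the median of the 34 genes was -0.19, with 27 below their neighbours and 7 above. The same count was not made over all measured genes. Genes of the list that lie close together share neighbours, so the 27 are not separate comparisons. The neighbours of CDH1 and CDH3 had a median of -0.02, and CDH1 kept -0.69 and CDH3 -0.49 after subtraction. On either side of the pair ZFP90 differed by 0.20 and TANGO6 by 0.20, and the hyaluronan synthase HAS3, just beyond TANGO6 and named after its value was seen, by -0.50. CLDN3 and CLDN4 lay among the highest neighbours, at 0.19, and turned to -0.09 and -0.13 after subtraction. DSG2 and DSC2 shared a neighbour median of 0.08 and stayed on opposite sides, at 0.26 and -0.30. All 5 keratins of the list measured on chromosome 12 shared a neighbour median of 0.05 and lay below it. Of the keratins outside the list measured there, KRT4 (0.11) lay above its neighbour median of 0.04. KRT3 (0.01) and KRT72 (-0.003) lay below theirs, at 0.05.

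**Figure D3:**
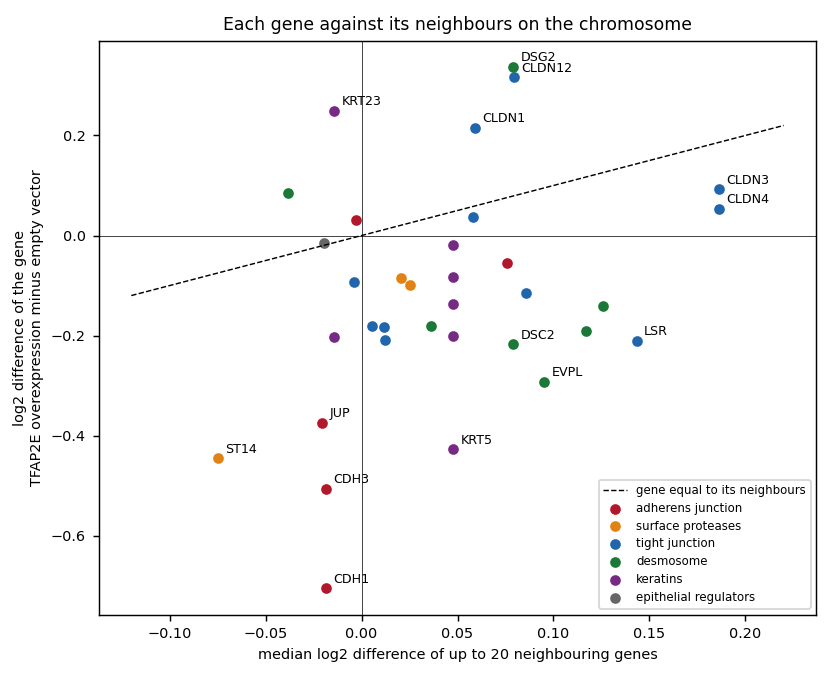
Log2 difference of each of the 34 measured genes (vertical axis) against the median difference of up to 20 measured genes around it on the chromosome (horizontal axis), TFAP2E overexpression minus empty vector. On the dashed line a gene equals its neighbours. Below it lie 27 of the 34, a count not made for all genes, with CDH1 farthest. DSG2, CLDN12, CLDN1 and KRT23 lie clearly above it.

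Further genes of the same systems were listed by function. Of 10 other measured adherens junction genes 7 (70.0%) were below 0 and below the median of all genes (median -0.06). Of all genes 39.5% lay below 0. The adhesion receptor NECTIN1 at -0.36 and beta-catenin (CTNNB1) at -0.31 were the lowest. CTNNAL1 (0.09) and the nectin-binding scaffold AFDN (0.09) were the highest. Beta-catenin, which binds E-cadherin at the membrane, read 11.48 on the TFAP2E array and 11.78 on the control array. Among 21 other tight junction genes 10 (47.6%) were below 0 and 11 above, against 39.5% of all genes below 0. Below the median of all genes were 14 (66.7%), with a list median of 0.00, against 7 of 11 (63.6%) for the tight junction genes described above. MARVELD3, a relative of tricellulin and occludin, read 5.76 on the TFAP2E array and 6.41 on the control array, 1.56-fold lower (-0.64), the single gene of that list past 1.5-fold. The polarity scaffold PATJ followed at -0.31, and the polarity proteins PARD3 and PRKCI were highest, at 0.28 each.

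Only 3 of 9 other desmosome genes were measured, PERP at -0.30, PKP4 at 0.06 and PNN at 0.10, and the skin-type desmogleins DSG1 and DSG3 were below the filter. The 10 other measured genes of the keratin list, which includes the keratinocyte-associated proteins KRTCAP2 (0.15) and KRTCAP3 (-0.10), had a median of 0.03. KRT13 read 7.26 on the TFAP2E array and 7.70 on the control array (-0.43), and KRT16 read 5.99 against 5.63 (0.36). Of the other surface proteases TMPRSS3 and PRSS22 were measured, at 0.23 each, above the median of all genes, unlike ST14. Of the further markers of layered epithelium, KRT1, KRT10, FLG and DSG1 were below the filter, and involucrin (IVL) read 5.42 on the TFAP2E array and 5.90 on the control array (-0.49), below the filter on the TFAP2E array.

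**Figure D4:**
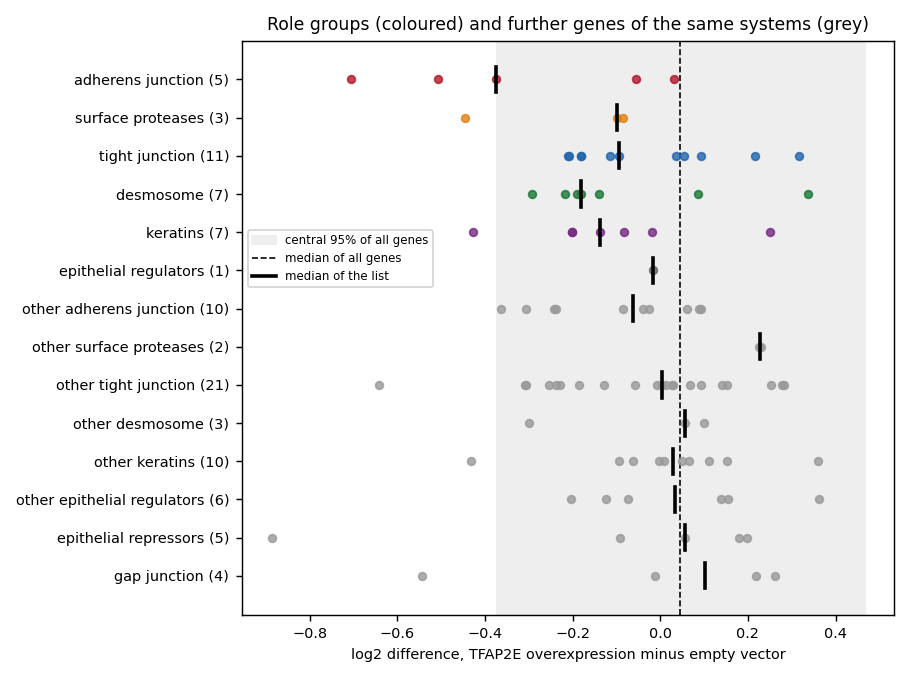
Log2 differences of the measured genes in the 6 role groups (coloured) and in 8 lists of further genes of the same systems (grey), number of measured genes in brackets, TFAP2E overexpression minus empty vector; each dot is a gene and each bar the list median. The medians of 5 of the 6 role groups lie at -0.09 or lower, and those of the further lists at -0.06 to 0.23. Of the further lists, adherens junction, tight junction, keratin and epithelial regulator genes have medians below the median of all genes, 0.04.

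The repressors of epithelial genes were mixed in sign. SNAI2 (Slug), known to repress CDH1, read 5.82 on the TFAP2E array and 6.71 on the control array, 1.85-fold lower (-0.89), further than any gene of the junction and keratin list. ZEB1, another CDH1 repressor, read 5.88 on the TFAP2E array and 5.70 on the control array (0.18). TWIST1 differed by 0.20, TWIST2 by 0.06 and SNAI3 by -0.09, and SNAI1 and ZEB2 were below the filter on both arrays. Of the 5 measured repressors 3 were above 0 and 2 below it, where 39.5% of all genes lay below 0. Their median was 0.06, and their part in the CDH1 value was not tested. Among other epithelial regulators EHF, an ETS factor, read 6.26 on the TFAP2E array and 5.90 on the control array (0.36), and KLF4 differed by -0.20, KLF5 by -0.12 and GRHL1 by 0.15, with a median of 0.03 over 6 measured genes.

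Gap junction genes, which form channels between cells, were split. GJB1, the connexin of many glandular epithelia, read 8.19 on the TFAP2E array and 8.73 on the control array, 1.46-fold lower (-0.54). GJA3 (0.26) and GJB2 (0.22) were above 0, and GJC1 (-0.01) was close to it.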

How the data were processed

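The deposited table holds 1 log2 value per probe set and array. The authors used RMA to make these log2 values, according to the processing notes of the submitters. This method corrects background, gives the arrays a common distribution and summarises probes, so that a shift of all transcripts would not appear. The medians of the deposited values were 5.54 on the TFAP2E array and 5.56 on the control array, so a small difference of scale remained. No label or file used here states its version or a genome build. Of 33297 probe sets 19460 had 1 gene symbol in the platform annotation and 1754 had several. Current symbols came from RefSeq by Entrez identifier (GRCh38.p14), in which 19429 were found. For a gene with several probe sets the one with the highest mean was used. Values were not scaled further. All 41 genes are described. From each further list the 2 highest and 2 lowest measured genes are named, or all where 4 or fewer were measured. Names beyond these were picked with their values in view. The genes and lists were chosen with earlier results of these data known. Fixed sizes of 2-fold and 1.5-fold replace a test, since each group has 1 array. Analyses used Python 3.11.15, pandas 2.3.3 and statsmodels 0.14.6, and counting was tested on simulated data. Alternatives covered scaling, filters, probe sets, a floor and thresholds. The neighbour comparison and the other probe sets of EPCAM and KRT18 were added after the data were seen.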

Additional observations from a re-analysis of the deposited data

How the results depend on the processing

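The 3 other scalings and the subtraction of the neighbours' median gave 136 values for the 34 genes. Each stayed within 0.219 of its original value, 0.219 being the standard deviation over all genes. The neighbour medians lay between -0.07 and 0.19, so their subtraction could not move a gene by 0.219. Of these 136 values 7 changed sign, to values from -0.13 to 0.01 (KRT18, ESRP2, CTNNA1, CLDN3, CLDN4 and CRB3). The 3 other filters and the floor leave a gene's own difference as it is, and averaged or exchanged probe sets changed EPCAM and KRT18 alone. The median of the list lay between -0.19 and -0.10. No gene of the list reached 2-fold under any of these settings. Between 19 and 29 of its genes lay below the median of all genes, 19 of 23 being the count with a filter at the 75th percentile. That filter left out CDH1 and CDH3, so that none of the list reached 1.5-fold (0 against 1) and the adherens junction median became -0.0555, the highest of the 5 groups with several measured genes in place of the lowest. It also left 5 higher and 8 lower genes at 2-fold over the whole array, against 10 and 13. Thresholds of 1.5-fold and 3-fold gave 103 and 70, and 2 and 2. The median of all genes was 0.07 after centring, 0.02 after quantile normalization and 0.01 once the loess trend was removed. The depth of a microarray is not a count, and signal over background was not used here. No paired analysis was possible because there is a single array per group.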
